A study of Homo sapiens with 12 samples.

Results

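Receptor tyrosine phosphatases are membrane proteins that remove phosphate from tyrosines of other proteins, and the genes of 10 of them were followed in human kidney cells exposed to a compound named Aa. The 10 genes were PTPRA, PTPRE, PTPRF, PTPRG, PTPRH, PTPRJ, PTPRK, PTPRM, PTPRS and PTPRU, out of 19775 genes named on the arrays. Every probe set annotated to exactly 1 of them was taken, and of a gene's probe sets the one brightest on average over the 12 arrays gave its main value. A probe set was named for 9 of the 10 genes, and PTPRJ is not analysed here. Of the 9 genes, 8 had values over log2 4, which lies above the background of these arrays, on at least 3 arrays and were tested among 11184 genes. PTPRG passed that filter through its 6 control arrays and 1 Aa array, PTPRM through its 6 control arrays and 2 Aa arrays, and PTPRH through its 6 Aa arrays and 1 control array. These 3 genes passed mainly through the group in which they were higher, so their levels and bounds describe them and their p-values add no support. PTPRU stayed near background and was not tested.

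The cells were HK-2, a single immortalised line of proximal tubule epithelium from the human kidney, and the study searched for expression signatures of compounds toxic to the kidney. There were 4 groups of 3 arrays each: cells given a high dose of Aa for 24 h, cells given the control vehicle for 24 h, Aa for 48 h and vehicle for 48 h. All groups were grown in a medium that contained EGF, insulin, hydrocortisone, transferrin and selenite, and were treated near confluence. The labels call the 3 arrays of a group biological replicates, and neither what Aa is nor its dose is stated in the labels.

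Receptor tyrosine phosphatases oppose tyrosine kinases at the cell surface, and most join an extracellular part that resembles a cell adhesion molecule to phosphatase domains inside the cell. Their subfamilies differ in the extracellular part. PTPRK, PTPRM and PTPRU belong to the MAM-domain group, which binds its own kind on neighbouring cells and acts on cadherins and catenins at junctions. PTPRF (LAR) and PTPRS carry immunoglobulin and fibronectin domains and bind proteoglycans. PTPRG has a domain like carbonic anhydrase, PTPRA and PTPRE have short extracellular parts and act on Src family kinases, and PTPRH and PTPRJ carry fibronectin repeats outside the cell and a single phosphatase domain inside.

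The member genes differ widely in length. The gene span in NCBI's RefSeq table (assembly GRCh38.p14) was 839.5 kb for PTPRM on chromosome 18, 736 kb for PTPRG on chromosome 3 and 551.8 kb for PTPRK on chromosome 6. These 3 genes, with a span of at least 300 kb, are called long below. The short members were PTPRE (178.8 kb, chromosome 10), PTPRA (174.5 kb, chromosome 20), PTPRS (135.3 kb, chromosome 19), PTPRF (101.6 kb, chromosome 1), PTPRU (90.28 kb, chromosome 1) and PTPRH (28.26 kb, chromosome 19).

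The promoters of 4 members are shown because these genes had the largest changes, 3 lower and 1 higher in Aa cells; they were chosen after their values were seen. Each is the 250 bases upstream of the first listed RefSeq start (GRCh38.p14): chr18:7567066-7567315 on the plus strand for PTPRM, chr6:128520600-128520849 on the minus strand for PTPRK, chr3:61561321-61561570 on the plus strand for PTPRG and chr19:55209502-55209751 on the minus strand for PTPRH. Capitals mark the letters of a GC box, GGGCGG, and of the core of a cAMP response element (CRE), TGACGT, searched on both strands.
PTPRM: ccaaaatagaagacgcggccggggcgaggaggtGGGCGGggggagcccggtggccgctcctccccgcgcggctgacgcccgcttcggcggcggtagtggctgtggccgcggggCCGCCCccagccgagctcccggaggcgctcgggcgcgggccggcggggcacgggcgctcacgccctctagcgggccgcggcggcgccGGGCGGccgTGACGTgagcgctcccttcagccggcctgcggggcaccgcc
PTPRK: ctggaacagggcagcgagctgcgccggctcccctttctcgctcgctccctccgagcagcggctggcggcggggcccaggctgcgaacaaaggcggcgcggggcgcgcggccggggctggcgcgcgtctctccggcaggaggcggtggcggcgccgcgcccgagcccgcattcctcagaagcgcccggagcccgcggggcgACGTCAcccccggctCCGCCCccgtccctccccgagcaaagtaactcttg
PTPRG: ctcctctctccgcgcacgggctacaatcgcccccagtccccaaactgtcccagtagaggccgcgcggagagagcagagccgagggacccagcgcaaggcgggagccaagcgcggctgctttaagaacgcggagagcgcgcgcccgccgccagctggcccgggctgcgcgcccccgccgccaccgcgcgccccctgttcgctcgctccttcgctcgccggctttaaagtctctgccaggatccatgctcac
PTPRH: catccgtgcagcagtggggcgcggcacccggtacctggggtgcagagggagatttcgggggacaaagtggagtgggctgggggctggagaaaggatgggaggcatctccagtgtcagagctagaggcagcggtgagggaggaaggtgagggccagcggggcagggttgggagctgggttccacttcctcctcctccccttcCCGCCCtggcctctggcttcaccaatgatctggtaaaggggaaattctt
The promoter of PTPRM held 3 GC boxes and 1 CRE core, that of PTPRK 1 of each, that of PTPRH 1 GC box and that of PTPRG none of these letters. The G and C content was 81.6% for PTPRM, 77.2% for PTPRK, 71.2% for PTPRG and 63.2% for PTPRH, against a median of 58% over 35116 promoters of the same length. CG pairs numbered 42 in PTPRM, 38 in PTPRK, 32 in PTPRG and 8 in PTPRH, against a median of 11. Over the 9 members with an entry, 7 held a GC box, 4 a CRE core and 0 the TATA box letters TATAAA. Of all 35116 promoters, 42.6% held a GC box, 7.1% a CRE core and 10.7% TATAAA. A match of letters is a description and shows no binding.

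In Aa cells the 3 long members fell at both times, PTPRH rose at both times, and PTPRF passed at neither. At 24 h, 4 of the 8 tested members were lower and 1 was higher in Aa cells than in control cells at an adjusted p under 0.05 (limma). Of all 11184 tested genes, 22.8% were lower and 26.3% were higher by the same rule. At 48 h, 6 members were lower and 1 was higher, where 33.9% of all tested genes were lower and 30.6% were higher. PTPRG, PTPRM and PTPRH are in these counts at both times. The median fitted log2 change of the 8 members was -1.11 at 24 h and -1.36 at 48 h, beside 0.023 and -0.025 over all tested genes. The Aa and control arrays did not overlap for 5 of 8 members at 24 h and for 7 of 8 at 48 h, which was so for 59.8% and 69.1% of all tested genes. Replicate numbers paired the samples, and with the number as a block 6 members were lower and 1 was higher at 24 h, with PTPRA and PTPRS added to the lower ones. In that fit 29.1% of all tested genes were lower and 32.5% were higher. In RNA from a whole culture, fewer cells with a transcript and less of it per cell cannot be told apart.

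**Figure D1:**
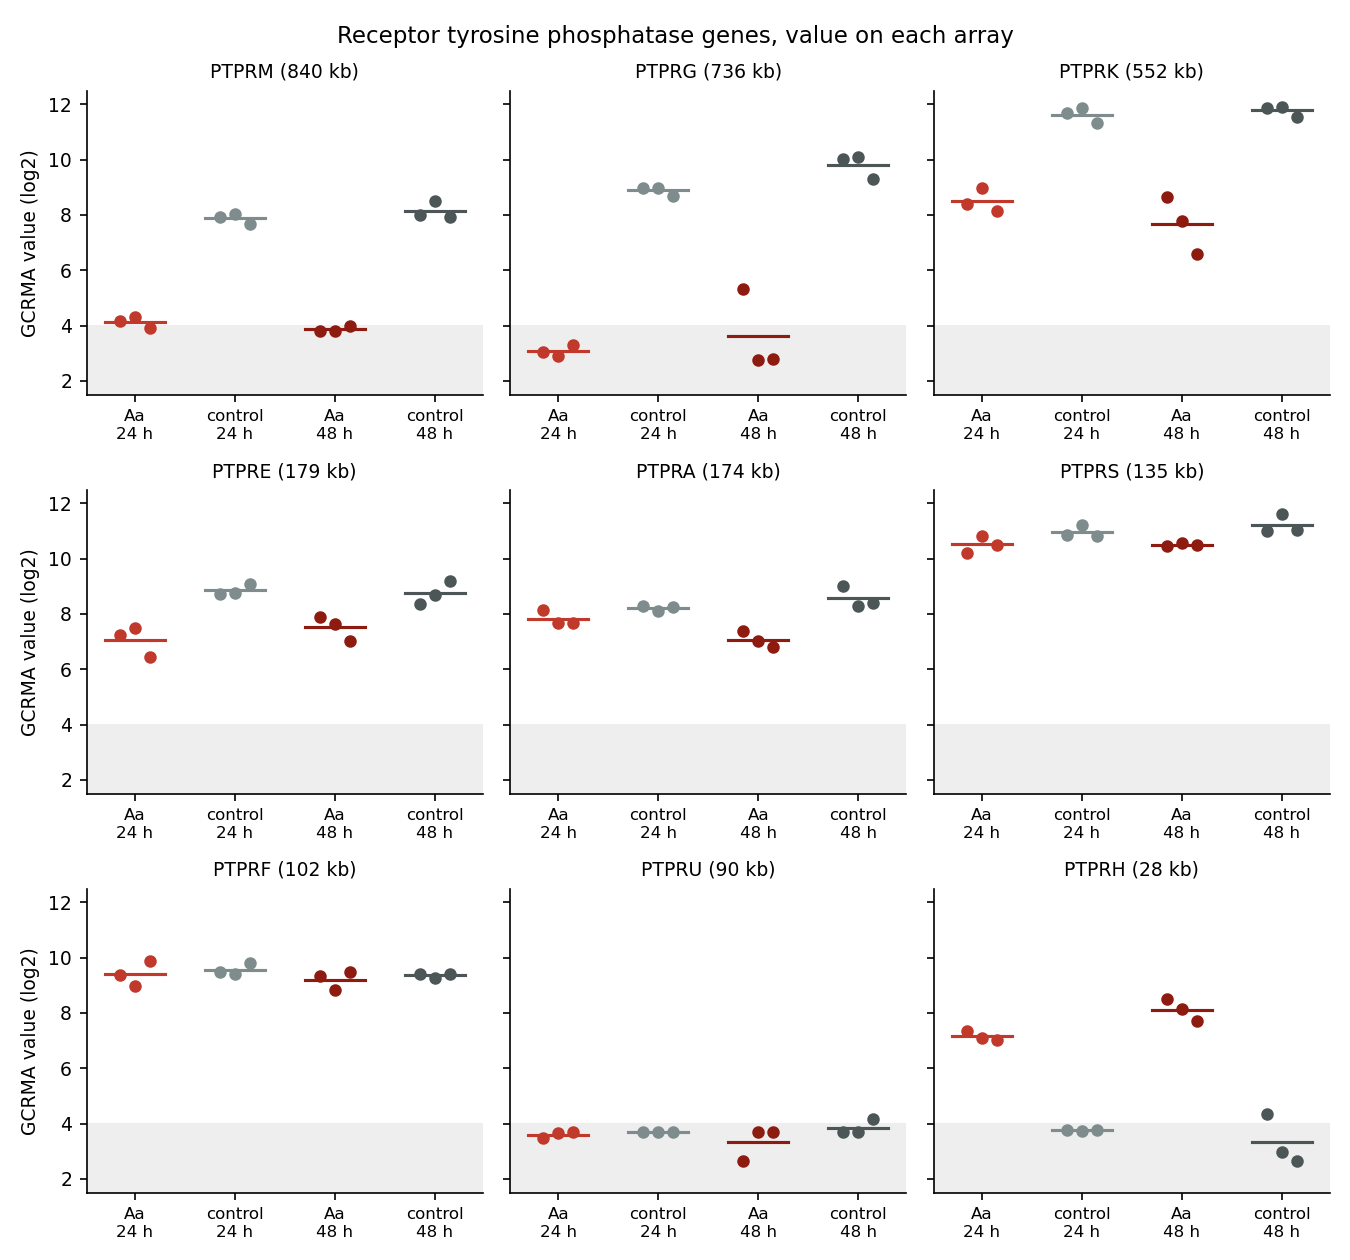
GCRMA value (log2, vertical axis) of the 9 members with a probe set on each of the 12 arrays, grouped along the horizontal axis as Aa and control at 24 h and at 48 h, with a bar at each group's mean and panels in order of falling gene span. The shaded band lies under log2 4. PTPRM, PTPRG and PTPRK lay lower on all 6 Aa arrays than on the 6 control arrays, and PTPRH lay higher.

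Among the MAM-domain phosphatases, PTPRM and PTPRK fell at both times and PTPRU stayed near background. PTPRM, a homophilic adhesion phosphatase of cell contacts, had log2 values of 4.16, 4.31 and 3.92 on the Aa arrays at 24 h, against 7.94, 8.04 and 7.69 on the control arrays. At 48 h it had 3.81, 3.82 and 3.98 on Aa arrays, against 8, 8.52 and 7.94 on control arrays. All 6 Aa arrays lay at or near log2 4, so that PTPRM was barely measured after Aa. Its fitted log2 change was -3.76 (SE 0.167, adjusted p = 4.01e-08 by limma) at 24 h and -4.29 (SE 0.167, adjusted p = 9.74e-09) at 48 h. PTPRM entered the test mainly through its control arrays, so these p-values add no support. With arrays under log2 4 set to that value, 1 at 24 h and 3 at 48 h, it was at least 13.3-fold and at least 17.8-fold lower in Aa cells.

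PTPRK, a phosphatase known to act on beta-catenin and on the EGF receptor, remained well above background on every array. It had log2 values of 8.4, 8.97 and 8.15 on Aa arrays at 24 h, against 11.68, 11.86 and 11.34 on control arrays. At 48 h the Aa arrays had 8.66, 7.79 and 6.6, against 11.88, 11.92 and 11.55 on control arrays. The Aa arrays were spread over more than 2 log2 units at 48 h, with replicate 1 highest and replicate 3 lowest, while the control arrays stayed close together. PTPRK was 8.66-fold lower in Aa cells at 24 h (log2 change -3.11, SE 0.416, adjusted p = 0.000115) and 17.1-fold lower at 48 h (log2 change -4.10, SE 0.416, adjusted p = 8.61e-06). PTPRU, of the same group, had values between 2.64 and 3.71 on the 6 Aa arrays and between 3.68 and 4.18 on the 6 control arrays, and only 1 control array at 48 h exceeded log2 4.

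PTPRG, which binds contactins through its carbonic anhydrase-like domain, had the lowest fitted change of all members. Its log2 values were 3.04, 2.9 and 3.3 on Aa arrays at 24 h, against 8.98, 8.99 and 8.7 on control arrays. At 48 h they were 5.31, 2.77 and 2.79 on Aa arrays, against 10.02, 10.11 and 9.29 on control arrays. Aa replicate 1 at 48 h stood more than 2 log2 units above the other 5 Aa arrays, which were all at background. The fitted log2 change was -5.81 (SE 0.550, adjusted p = 1.015e-05) at 24 h and -6.18 (SE 0.550, adjusted p = 3.31e-06) at 48 h, and -7.03 at 48 h without Aa 48 h replicate 1. These p-values add no support, since PTPRG entered the test mainly through its control arrays. PTPRG was at least 29.7-fold lower at 24 h, with 3 Aa arrays under log2 4, and at least 41.3-fold lower at 48 h, with 2.

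Of the pair of short-ectodomain phosphatases that act on Src family kinases, PTPRE fell at both times, and PTPRA passed at 48 h. PTPRE had log2 values of 7.25, 7.5 and 6.46 on Aa arrays at 24 h, against 8.71, 8.76 and 9.09 on control arrays, and was 3.45-fold lower (log2 change -1.79, SE 0.305, adjusted p = 0.000615). At 48 h it had 7.88, 7.65 and 7.04 on Aa arrays, against 8.36, 8.67 and 9.2 on control arrays, and was 2.33-fold lower (log2 change -1.22, SE 0.305, adjusted p = 0.00465). The groups did not overlap at either time. Paired by replicate number, the log2 difference of PTPRE at 48 h was -0.48, -1.02 and -2.16 in replicates 1, 2 and 3.

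PTPRA had log2 values of 8.13, 7.66 and 7.69 on Aa arrays at 24 h, against 8.3, 8.11 and 8.27 on control arrays, with overlap. Its log2 change of -0.40 (SE 0.208) had an adjusted p of 0.133 by limma, and of 0.0176 with replicate number as a block. At 48 h PTPRA had 7.37, 7.03 and 6.81 on Aa arrays, against 9.01, 8.3 and 8.39 on control arrays, without overlap. It was 2.82-fold lower there (log2 change -1.49, SE 0.208, adjusted p = 8.60e-05).

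Of the LAR-type members, PTPRS passed as lower at 48 h and PTPRF passed at neither time. PTPRS, a receptor for chondroitin and heparan sulfate proteoglycans, had log2 values of 10.22, 10.83 and 10.51 on Aa arrays at 24 h, against 10.86, 11.21 and 10.82 on control arrays. The highest Aa array lay just above the lowest control array, and the log2 change of -0.44 (SE 0.195) had an adjusted p of 0.0831 by limma and of 0.00812 with the block. At 48 h PTPRS had 10.44, 10.56 and 10.49 on Aa arrays, against 10.99, 11.62 and 11.03 on control arrays, and was 1.64-fold lower (log2 change -0.72, SE 0.195, adjusted p = 0.00759). PTPRF, a phosphatase of focal adhesions and junctions, had 9.39, 8.98 and 9.89 on Aa arrays at 24 h, against 9.49, 9.4 and 9.81 on control arrays. At 48 h PTPRF had 9.32, 8.84 and 9.47 on Aa arrays, against 9.41, 9.26 and 9.42 on control arrays, and the groups overlapped at both times. Its log2 change was -0.15 at both times, with 95% intervals from -0.65 to 0.36 at 24 h and from -0.65 to 0.35 at 48 h (adjusted p = 0.629 and 0.583).

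PTPRH was the 1 member that rose. It encodes stomach cancer-associated phosphatase, which is known from microvilli of intestinal epithelium. The Aa arrays had log2 values of 7.34, 7.08 and 7.04 at 24 h, against 3.76, 3.74 and 3.76 on control arrays. At 48 h they had 8.5, 8.16 and 7.7, against 4.34, 2.99 and 2.65 on control arrays. PTPRH was thus near or under background in control cells and measured on every Aa array. It was at least 8.90-fold higher in Aa cells at 24 h (fitted log2 change 3.40, SE 0.356, adjusted p = 2.09e-05), where 3 control arrays lay under log2 4. At 48 h it was at least 16.1-fold higher (fitted log2 change 4.80, SE 0.356, adjusted p = 9.40e-07), where 2 of them did. Both p-values add no support, since PTPRH entered the test mainly through its Aa arrays. PTPRH has 1 probe set on these arrays, so no other probe set can be set beside it.

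Split by gene span, the long members had lower fitted changes than the short ones. At 24 h the 3 long members had log2 changes from -5.81 to -3.11 with a median of -3.76, and the 5 tested short members from -1.79 to 3.40 with a median of -0.40. At 48 h the long members ranged from -6.18 to -4.10 with a median of -4.29, and the short members from -1.49 to 4.80 with a median of -0.72. All 3 long members passed as lower at both times, PTPRG and PTPRM having entered the test through their control arrays, while of the 5 short members 1 was lower and 1 higher at 24 h, and 3 were lower and 1 higher at 48 h. These are descriptions without a test of the split. At both times the median of the long members was the value of PTPRM, whose Aa arrays lay at or near log2 4. With the limit set at 150 kb, which moves PTPRE and PTPRA to the long side, the medians at 24 h were -3.11 for 5 long members and -0.15 for 3 short ones, and at 48 h -4.10 and -0.15. With that limit the ranges of the changes at 24 h overlapped, from -5.81 to -0.40 in the long members and from -0.44 to 3.40 in the short ones.

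**Figure D2:**
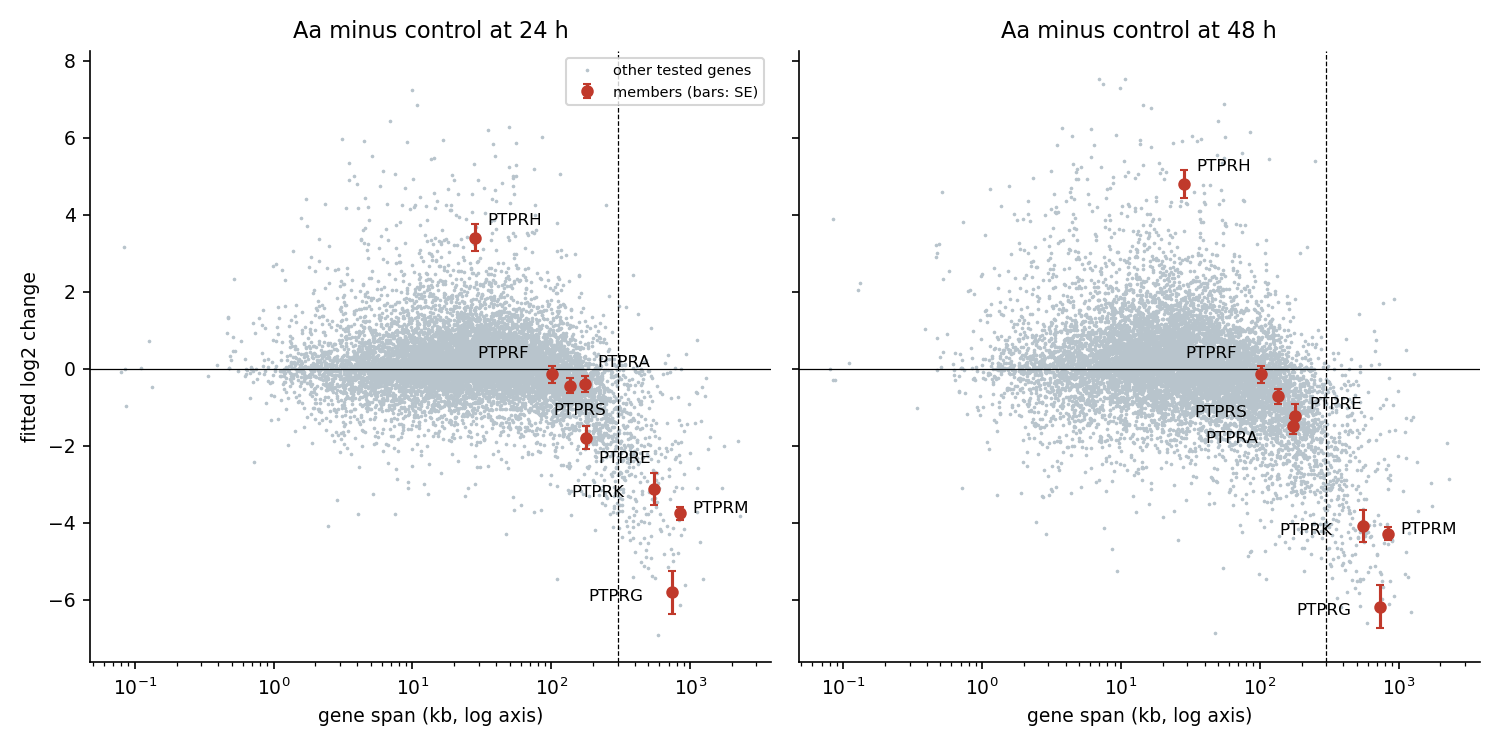
Fitted log2 change, Aa minus control (vertical axis), against gene span in kb (log axis) for all tested genes with a span (grey) and for the 8 tested members (red, bars are SE), at 24 h and at 48 h. The dashed line marks 300 kb. PTPRG, PTPRM and PTPRK lie among the long genes at log2 changes between -6.18 and -3.11, and PTPRH lies at 3.40 and 4.80.

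The share of lower genes grew with span over all tested genes too. Of the 348 tested genes of at least 300 kb, 80.5% were lower and 1.72% higher in Aa cells at 24 h, and 89.9% and 1.72% at 48 h. Among 7350 genes under 50 kb, 15.5% were lower and 30.6% higher at 24 h, and 22.7% and 38.7% at 48 h. A fitted fall of at least 4-fold with an adjusted p under 0.05, which the 3 long members had at both times, was seen in 50.9% of the genes of at least 300 kb at 24 h and in 63.8% at 48 h. Over all tested genes it was seen in 2.91% and 6.09%. PTPRG and PTPRM entered the test mainly through their control arrays, so their meeting this rule adds no support.

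Within their own span class the members took different places. PTPRG ranked 3 from the lowest of 348 genes at 24 h and 5 at 48 h, PTPRM 55 and 70, and PTPRK 86 and 80, against a class median of -2.02 at 24 h and -2.62 at 48 h. Of the 755 genes from 150 to 300 kb, 13.6% had a lower change than PTPRE and 66.9% a lower change than PTPRA at 24 h, and 49.9% and 40.3% at 48 h. Of the 2723 genes from 50 to 150 kb, 24.8% had a lower change than PTPRS and 42.5% than PTPRF at 24 h, and 29.9% and 56.3% at 48 h. PTPRH stood near the top of the 7350 genes under 50 kb, where 98.9% of the genes at 24 h and 99.4% at 48 h had a lower change. Genes near background carry no order among themselves, and the fitted values of PTPRG, PTPRM and PTPRH include such arrays.

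**Figure D3:**
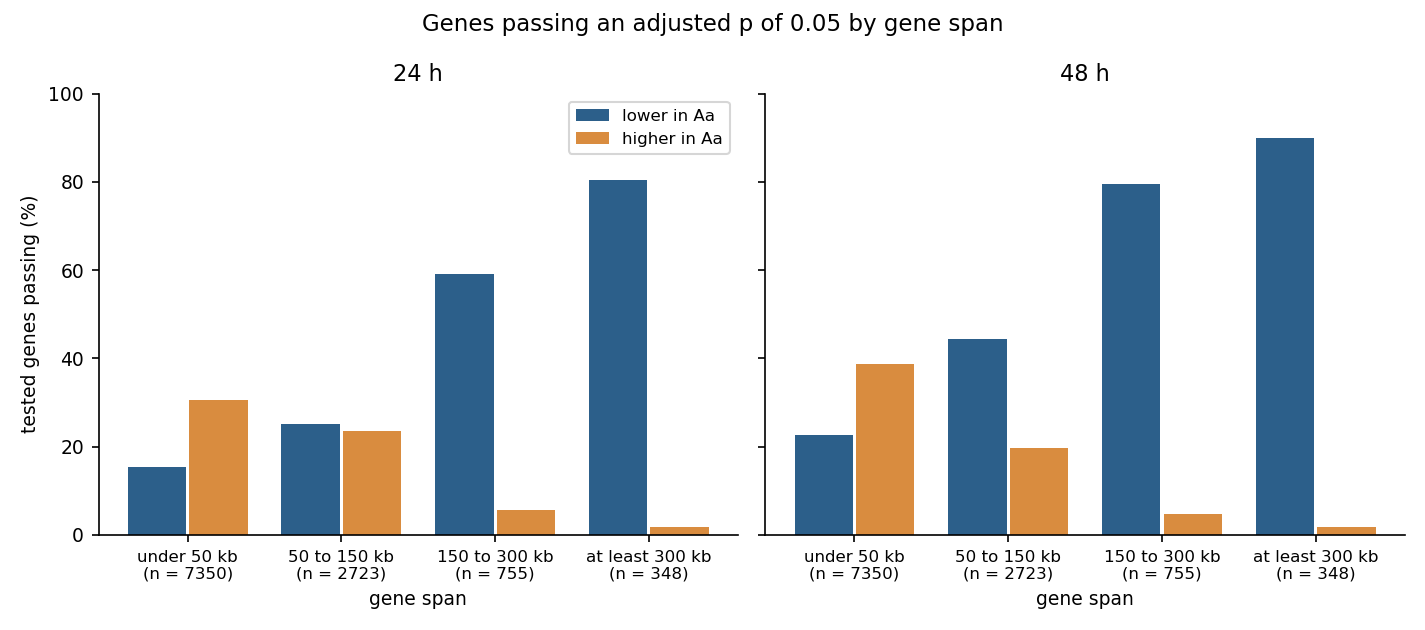
Share of tested genes (%, vertical axis) that were lower (blue) or higher (orange) in Aa cells at an adjusted p under 0.05, in 4 classes of gene span, at 24 h and at 48 h. The share of lower genes is 15.5% under 50 kb and 80.5% from 300 kb at 24 h, and 22.7% and 89.9% at 48 h.

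No member passed the test between the control times. Between control cells at 48 h and at 24 h, 0 of 8 members passed in either direction by limma, 0 had an unadjusted p under 0.05, and 0 passed with the block, where 0.635% of all tested genes passed without the block and 14.9% with it. The fitted log2 differences ran from -0.43 for PTPRH to 0.91 for PTPRG, whose control arrays at 48 h all lay above those at 24 h (adjusted p = 0.422). Between Aa cells at 48 h and at 24 h, PTPRA was 1.69-fold lower at 48 h (log2 difference -0.76, SE 0.208, adjusted p = 0.0201). PTPRH had a log2 difference of 0.97 (SE 0.356), with an adjusted p of 0.0632 by limma and of 0.0200 with the block. Of all tested genes, 19.5% were lower and 9.65% higher in Aa cells at 48 h than at 24 h. In PTPRK, PTPRM and PTPRG the order of the group means was control at 48 h, control at 24 h and then both Aa groups, and neither the 2 control groups nor the 2 Aa groups passed the test against each other. In PTPRH the order was Aa at 48 h, Aa at 24 h and then both control groups, which did not pass against each other.

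The test of the change at 48 h minus the change at 24 h was passed by PTPRA alone, whose fall was larger at 48 h (log2 difference -1.09, SE 0.293, adjusted p = 0.0272). Of all tested genes, 12.7% passed as lower in that test and 6.8% as higher. The call of PTPRA was lost in 5 of the 12 fits that left out 1 array, with adjusted p from 0.0514 to 0.0624. For PTPRH the log2 difference was 1.40 (SE 0.504), with an adjusted p of 0.0733 by limma and of 0.0218 with the block. It includes control arrays at background, and with values under log2 4 set to that level it was 0.86 (adjusted p = 0.0376). Without Aa 48 h replicate 1 the fall of PTPRK also passed as larger at 48 h, with a log2 difference of -1.47 (adjusted p = 0.0479), against -0.98 (adjusted p = 0.258) with it. For PTPRG all Aa arrays other than that one lay under log2 4, so the size of its fall cannot be compared between the times.

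Other probe sets of the members mostly moved with the main one. The arrays held 24 probe sets annotated to a member, of which 15 passed the filter and 9 did not. In a fit of every probe set over the filter, 8 of the 15 were lower and 1 higher at 24 h, and 10 were lower and 1 higher at 48 h, where 23.2% of 20456 probe sets were lower and 23.8% higher at 24 h, and 34% and 27.2% at 48 h. The counted probe sets of PTPRG, PTPRM and PTPRH passed the filter mainly through the group in which they were higher, so their calls add no support. The Aa means of 204944_at, 244574_at and 203329_at lay under log2 4 at both times, so the sizes of their falls are not well measured. For PTPRG, the probe set 204944_at had log2 changes of -4.74 at 24 h and -6.00 at 48 h and 244574_at had -3.02 and -4.23. For PTPRM, 203329_at had -3.74 and -4.02. For PTPRA, 213799_s_at had -1.09 (adjusted p = 0.00142) at 24 h, where the main probe set 213795_s_at had -0.40 (adjusted p = 0.140 in the fit of probe sets), and -2.21 against -1.49 at 48 h. For PTPRS the probe sets disagreed: 226571_s_at had 0.08 at 24 h and 0.14 at 48 h (adjusted p = 0.667 and 0.424), beside -0.44 and -0.72 for the main probe set 229465_s_at. The 3 probe sets of PTPRF over the filter had log2 changes from -0.26 to 0.10, and none passed at either time. In PTPRE and PTPRK only the main probe set passed the filter.

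**Figure D4:**
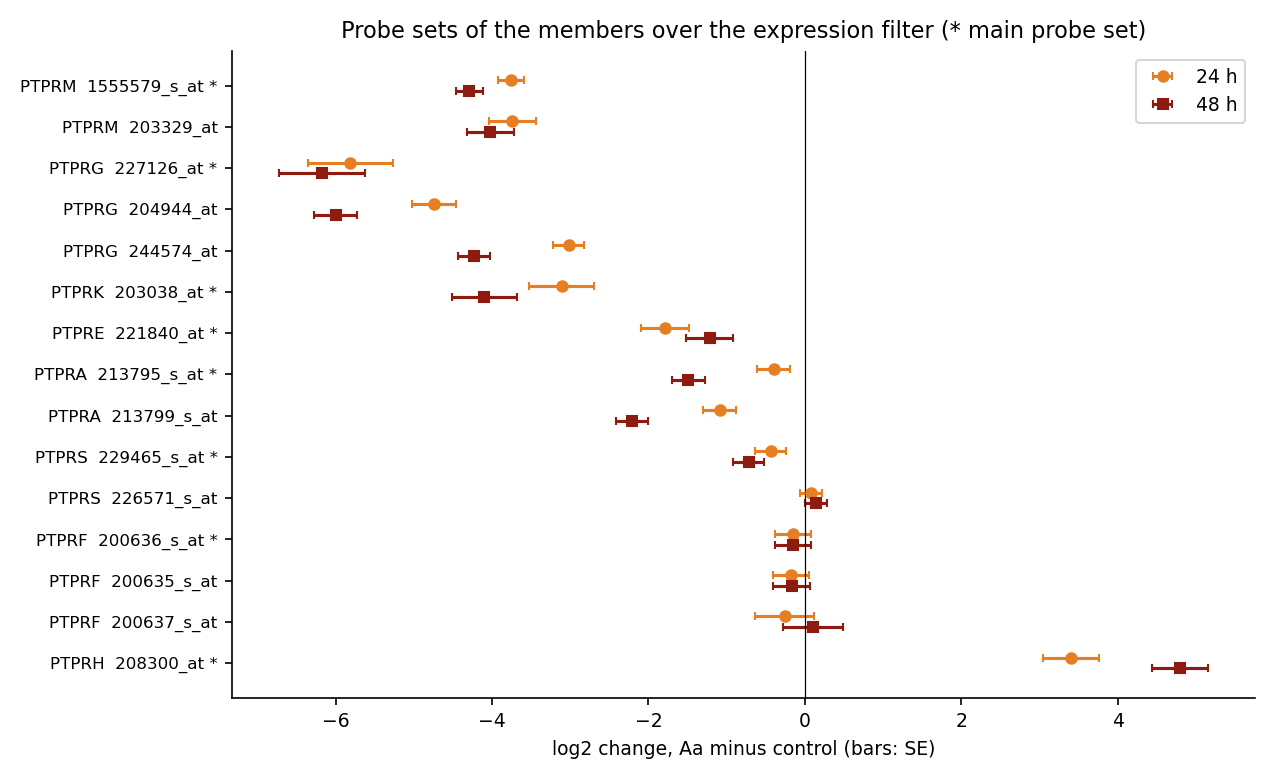
Log2 change, Aa minus control (horizontal axis, bars are SE), of the 15 member probe sets over the filter, at 24 h (orange circles) and 48 h (dark red squares), with the main probe set of each gene starred. All probe sets of PTPRG and PTPRM lie between -6.18 and -3.02, and those of PTPRS lie on both sides of 0.

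The other receptor-type phosphatase genes in the list were PTPRB, PTPRC, PTPRD, PTPRN, PTPRN2, PTPRO, PTPRQ, PTPRR, PTPRT, PTPRZ1 and PTPRCAP, the last of which encodes a partner of PTPRC and not a phosphatase. Of these 11, 9 had a probe set and 2 passed the filter, PTPRD and PTPRO. PTPRD passed it through its 6 control arrays alone, the group in which it was higher, so its levels and bounds describe it and its calls add no support. PTPRD, a LAR-type phosphatase whose gene spans 2299 kb, had log2 values between 2.42 and 2.43 on Aa arrays at 24 h, against 5.92 to 6.46 on control arrays. At 48 h it had 2.43 to 2.45 on Aa arrays, against 4.8 to 6.01 on control arrays. It was at least 4.75-fold lower at 24 h and at least 2.46-fold lower at 48 h, with 3 Aa arrays under log2 4 each time. PTPRO, a phosphatase of podocytes whose gene spans 275.8 kb, averaged 12.2 ± 0.395 in Aa cells and 13.5 ± 0.135 in control cells at 24 h (log2, SD, n = 3 each). At 48 h it averaged 11.2 ± 0.484 in Aa cells and 13.4 ± 0.179 in control cells. Its log2 changes were -1.35 at 24 h (adjusted p = 0.000921) and -2.15 at 48 h (adjusted p = 1.98e-05), but they rest on probe set 211600_at, while the other 2 probe sets named PTPRO never exceeded 2.79 on any array.

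Among the non-receptor classical phosphatase genes, 14 of 17 were tested. At 24 h 3 were lower and 3 higher, where 22.8% of all tested genes were lower and 26.3% higher. At 48 h 9 were lower and 3 higher, where 33.9% and 30.6% of all tested genes were. With the block, 5 were lower at 24 h, beside 29.1% of all tested genes. The median log2 change of the list was -0.07 at 24 h and -0.65 at 48 h. PTPN13, a large cytoplasmic phosphatase with PDZ domains, had log2 changes of -0.72 at 24 h (adjusted p = 0.0317) and -1.95 at 48 h (adjusted p = 4.39e-05), and PTPN4 had -0.92 (adjusted p = 0.00178) and -1.59 (adjusted p = 2.34e-05). PTPN12, which acts on focal adhesion proteins, had -0.25 (adjusted p = 0.104) and -0.98 (adjusted p = 2.96e-05), and PTPN3 had -0.46 (adjusted p = 0.0589, and 0.00505 with the block) and -0.90 (adjusted p = 0.00133). None of these 14 genes reached the size of change of a long receptor-type member. Their spans ran from 14.74 kb for PTPN6 to 225 kb for PTPN4, so none of them was long. In this comparison the type of phosphatase and the gene span cannot be told apart.

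**Figure D5:**
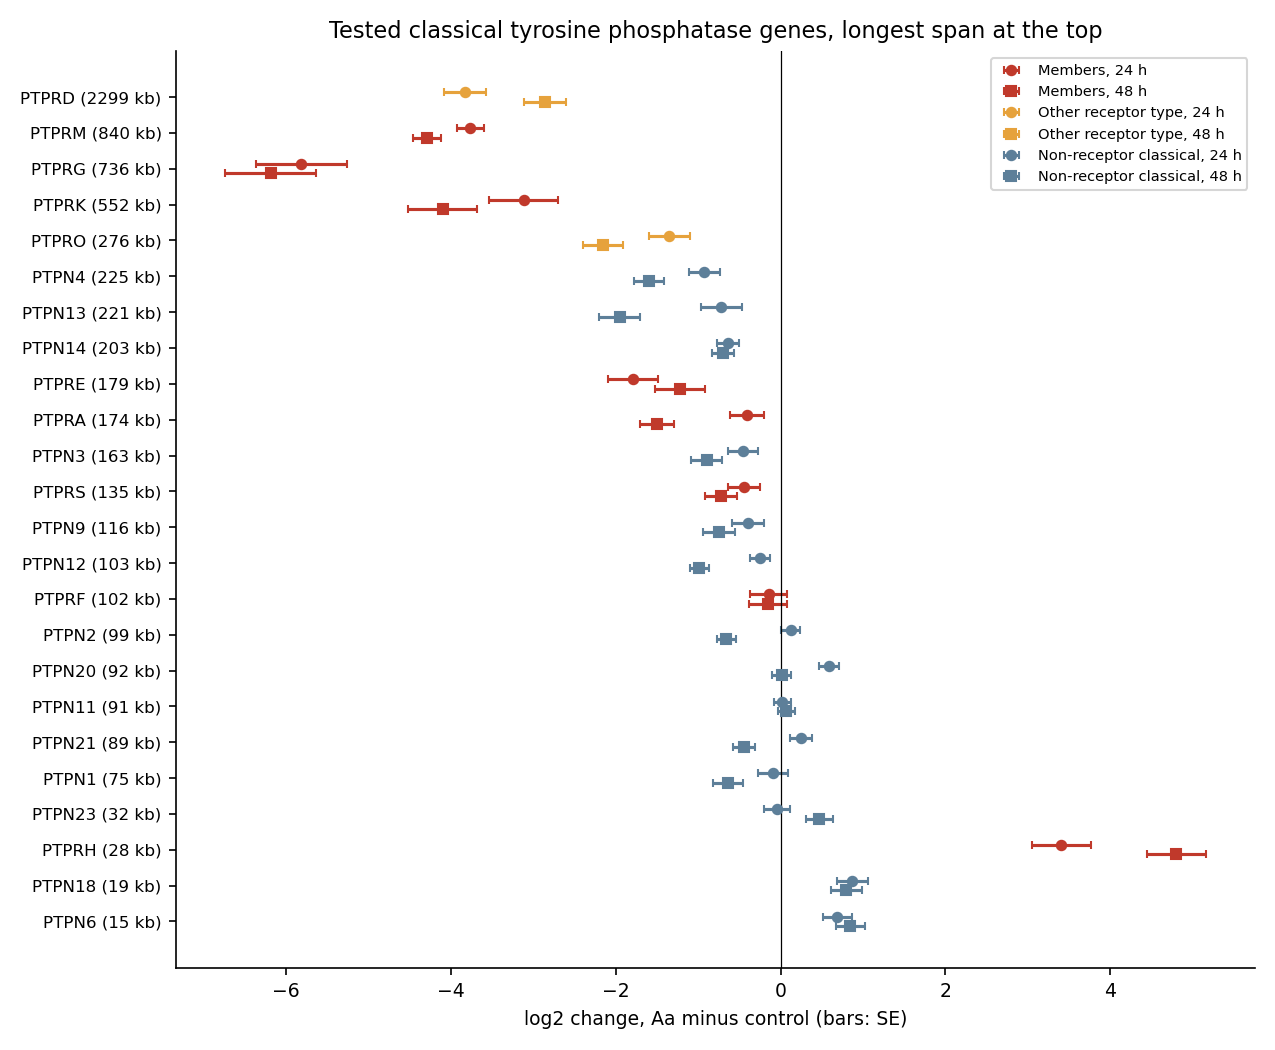
Log2 change, Aa minus control (horizontal axis, bars are SE), of the 24 tested classical tyrosine phosphatase genes in order of falling gene span, at 24 h (circles) and 48 h (squares). Members are red, other receptor-type genes yellow and non-receptor genes blue. The 4 genes from 552 kb upwards lie at or below -2.86, and PTPRH lies at 3.40 and 4.80.

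Genes of proteins that these phosphatases act on or bind were read from 5 lists. Of 9 tested receptor tyrosine kinase genes, 3 were lower and 1 higher at 24 h, and 6 lower and 1 higher at 48 h. Over all tested genes 22.8% were lower and 26.3% higher at 24 h, and 33.9% and 30.6% at 48 h. With the block, 5 were lower at 24 h, beside 29.1% of all tested genes. IGF1R, the receptor of insulin-like growth factors, had log2 changes of -2.20 at 24 h (adjusted p = 0.000502) and -4.11 at 48 h (adjusted p = 3.25e-06), and EPHA2, an ephrin receptor, had 0.76 (adjusted p = 0.00463) and 2.25 (adjusted p = 1.57e-06). FGFR2 had -0.54 (adjusted p = 0.0609, and 0.00445 with the block) and -1.50 (adjusted p = 0.000116). INSR, the insulin receptor, had -0.56 (adjusted p = 0.322) at 24 h and was at least 2.09-fold lower at 48 h (adjusted p = 0.00800), with 1 Aa array under log2 4. The medians of the list were -0.54 and -0.62.

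Of 9 tested Src family kinase and adaptor genes, 2 were lower and 1 higher at 24 h, with a median of -0.19. At 48 h 3 were lower and 3 higher, with a median of -0.26. The shares over all tested genes were 22.8% lower and 26.3% higher at 24 h, and 33.9% and 30.6% at 48 h. With the block, 2 were higher at 24 h, beside 32.5% of all tested genes. CSK (log2 change 0.34, adjusted p = 0.252, and 0.0330 with the block) was the one added. SRC itself was higher at both times, by 0.76 at 24 h (adjusted p = 0.00737) and by 0.75 at 48 h (adjusted p = 0.00588) on the log2 scale. PTK2, the gene of focal adhesion kinase, had -0.90 (adjusted p = 0.000143) and -1.45 (adjusted p = 2.41e-06), and PAG1, a membrane adaptor that recruits the kinase CSK, had -0.67 (adjusted p = 0.0241) and -1.52 (adjusted p = 0.000102). PXN, the gene of paxillin, had 0.22 (adjusted p = 0.351) and 1.05 (adjusted p = 0.000446).

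Of 8 tested genes of cadherins and catenins, whose proteins the MAM-domain phosphatases act on, 5 were lower at 24 h and 5 at 48 h. At either time 0 were higher. Over all tested genes 22.8% were lower and 26.3% higher at 24 h, and 33.9% and 30.6% at 48 h. The medians of the list were -0.57 and -0.77. With the block 6 were lower at each time, where 29.1% of all tested genes were lower at 24 h. The share with the block at 48 h is not reported here. CDH3 was added at 24 h and JUP, the gene of plakoglobin, at 48 h (log2 change -0.24, adjusted p = 0.324, and 0.0441 with the block). CDH6 had log2 changes of -1.54 at 24 h (adjusted p = 0.00192) and -2.75 at 48 h (adjusted p = 2.03e-05), CDH2 had -1.72 (adjusted p = 0.000167) and -2.14 (adjusted p = 1.96e-05), and CDH1 had -1.69 (adjusted p = 0.00450) and -1.27 (adjusted p = 0.0154). CDH3 had -0.60 (adjusted p = 0.0602, and 0.00724 with the block) and -1.06 (adjusted p = 0.00256).

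Of 7 tested genes of liprins and other cytoplasmic partners of LAR-type phosphatases, 3 were lower and 1 higher at 24 h, with a median of -0.43. At 48 h 5 were lower and 2 higher, with a median of -0.80. The shares over all tested genes were 22.8% lower and 26.3% higher at 24 h, and 33.9% and 30.6% at 48 h. With the block, 4 were lower at 24 h, beside 29.1% of all tested genes. PPFIA4, a liprin, was at least 1.88-fold higher at 24 h and at least 2.56-fold higher at 48 h, with 3 control arrays under log2 4 each time. PPFIA4 passed the filter through its 6 Aa arrays alone, the group in which it was higher, so its place among the higher genes of the list adds no support. CASK, a scaffold of cell contacts, had log2 changes of -2.34 at 24 h (adjusted p = 2.30e-07) and -1.61 at 48 h (adjusted p = 1.68e-06), and NDE1 had -2.15 (adjusted p = 1.57e-05) and -2.01 (adjusted p = 1.34e-05). TRIO, a guanine nucleotide exchange factor that binds PTPRF, had -0.43 (adjusted p = 0.127, and 0.00534 with the block) and -0.95 (adjusted p = 0.00284).

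Of 13 tested ligand and proteoglycan genes, 3 were lower and 3 higher at 24 h, with a median of -0.003. At 48 h 2 were lower and 3 higher, with a median of 0.27. Over all tested genes 22.8% were lower and 26.3% higher at 24 h, and 33.9% and 30.6% at 48 h. With the block, 5 were lower at 24 h, beside 29.1% of all tested genes, and 6 lower and 7 higher at 48 h. The block raised the share of called genes at 24 h, and its share at 48 h is not reported here. These counts are therefore not read as a result about the list. GPC6, a glypican whose gene spans 1191 kb, had log2 changes of -1.36 at 24 h (adjusted p = 0.0115) and -4.28 at 48 h (adjusted p = 3.21e-06). GPC4 had -1.41 at both times (adjusted p = 3.77e-05 and 1.97e-05), GPC1 had 0.82 (adjusted p = 0.000411) and 0.88 (adjusted p = 0.000149), and SDC4, a syndecan of focal adhesions, had 0.71 (adjusted p = 4.52e-05) and 1.03 (adjusted p = 1.58e-06).

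The genes whose profile over the 12 arrays was most like that of PTPRG, by Euclidean distance between values minus each gene's own mean, were PRKCB at 1.22, PSD3 at 1.26 and ARHGAP6 at 1.27, against a median distance of 10.7 over the tested genes. Their spans were 384.6 kb, 557.5 kb and 528.4 kb, and their fitted log2 changes at 48 h were -6.20, -5.47 and -6.17. For PTPRH the nearest were MSX1 at 1.53, MAPKBP1 at 1.53 and LPAR2 at 1.61, against a median of 7.39. Their spans were 4.272 kb, 53.37 kb and 4.566 kb, and their log2 changes at 48 h were 4.58, 3.87 and 4.40. The profiles share the 12 arrays and mostly follow the contrast of Aa with control.

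The identity of the cells and the state of the RNA bear on all of these values. Arrays of a group correlated at 0.994 to 0.997, and Aa arrays with control arrays at 0.949 to 0.976. Of 11 proximal tubule markers, PAX8 passed the filter, and 9 of the other 10 stayed under log2 4 on every array, AQP1, LRP2 and CUBN among them. All 5 simple epithelium markers passed the filter, and their summed log2 values were 54 to 55.5 in Aa cells and 57.9 to 59.4 in control cells at 24 h. At 48 h these sums were 54 to 56.3 in Aa cells and 57 to 58.8 in control cells. The markers differed at 48 h: CDH1 averaged 5.95 in Aa cells against 7.22 in control cells, KRT19 11.16 against 12.53 and EPCAM 13 against 13.44. KRT8 averaged 12.52 against 11.81 and KRT18 12.83 against 12.79. Of 5 fibroblast markers COL1A1, DCN and LUM passed. The sums over all 5, which include the 2 at background, were 33.6 to 35.5 in Aa cells and 35.7 to 36.8 in control cells at 24 h. At 48 h these sums were 34.7 to 35.5 in Aa cells and 34.9 to 35.8 in control cells. The 4 endothelial markers and the 4 leukocyte markers with a probe set, PTPRC among them, stayed under log2 4 on all arrays. The log2 signal at the 3' end of ACTB and GAPDH minus that at the 5' end, which grows as RNA degrades, averaged 0.394 in Aa cells and 0.306 in control cells at 24 h. At 48 h it averaged 0.542 in Aa cells and 0.319 in control cells. The part of these marker and RNA values in the changes of the phosphatase genes was not tested.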

How the data were processed

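RNA from 12 HK-2 cultures was measured on Affymetrix arrays. Per the submitters' processing notes, the authors used GCRMA, and the deposited table holds its log2 expression values. GCRMA corrects background, normalises between arrays and summarises probe sets, which hides a shift common to most transcripts. Its version and which arrays entered the normalisation are not stated there. Array medians lay between 2.91 and 3.02, and values under log2 4 were read as background.

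Of 54675 probe sets, 41091 named 1 gene in GEO's platform annotation, 1801 several and 11721 none, beside 62 manufacturer's controls. Symbols and spans came from NCBI's RefSeq table through Entrez numbers, matched for 41037. Genes were tested if over log2 4 on at least 3 of 12 arrays, which excluded 8591 of 19775. Tests used limma 3.58.1 (R 4.3.3) with 1 mean per group and all 12 arrays (8 residual and 2.79 prior degrees of freedom), with Benjamini-Hochberg adjustment over 11184 genes and a threshold of 0.05. Every adjusted p is from limma. Without the block, the p-values measure the spread between the replicates of a group and leave out the pairing by replicate number described below. The fit was also run on simulated data with independent noise and changes set at 24 h only. Those data held no replicate pairing and no background floor, so the run does not cover either. The number of arrays limits the precision: the median SE of a log2 change was 0.161 (0.227 for the difference between times). Where arrays of the dimmer group lay under log2 4, they were set to log2 4 and the fold is a lower bound.

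Same-numbered samples of different groups deviated together (r from 0.279 to 0.577 over 18 pairs, against -0.372 to -0.0286 over 36 pairs with different numbers), so the numbers pair the samples. The labels do not say what they share. For members, and for the lists in Aa against control cells, the result with the number as a block is given where it changed a call or count.

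All 10 members were named, with up to 4 genes per list (the largest changes at 48 h among those passing) and the 3 nearest profiles of the members with the lowest and highest change at 48 h. The members, lists and span limit were chosen with earlier results of these data known, and no list was tested as a set. Alternatives covered normalisation, filter, probe set choice, floor, span limit, block and each array left out.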

Additional observations from a re-analysis of the deposited data

Results flagged for a closer look

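For 1 of the 8 members and 14 of the 62 tested listed genes the change at 48 h differed from the change at 24 h by the limma test of that difference, and the values of the member and of the 9 listed genes named above are given. PTPRA had a difference of -1.09 on the log2 scale (SE 0.293, adjusted p = 0.0272), with a change of -1.49 at 48 h and of -0.40 at 24 h. Among non-receptor phosphatase genes the difference was -1.23 for PTPN13 (adjusted p = 0.0336) and -0.73 for PTPN12 (adjusted p = 0.0143). Among receptor tyrosine kinase genes it was -1.90 for IGF1R (adjusted p = 0.0281), -0.96 for FGFR2 (adjusted p = 0.0498) and 1.49 for EPHA2 (adjusted p = 0.00476). PTK2 had -0.56 (adjusted p = 0.0464) and PXN 0.83 (adjusted p = 0.0459). GPC6 had the lowest value, -2.91 (SE 0.536, adjusted p = 0.00630), with a change of -4.28 at 48 h and of -1.36 at 24 h. CASK had 0.73 (adjusted p = 0.0225), since its fall was smaller at 48 h (-1.61) than at 24 h (-2.34). Of all tested genes 19.5% passed this test in either direction. Groups of 3 arrays were not examined for outlying arrays.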

How the results depend on the processing

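Over the single members' changes, recomputed in all settings that give them a value, 679 kept their direction and their side of the threshold, 14 came to pass, 6 no longer passed and 21 turned sign. The counts of members and the medians that moved are given below, and the cause was not tested. PTPRK kept its calls at both times in all settings that give it a value. PTPRG, PTPRM and PTPRH did so too. They entered the test mainly through the group in which they were higher, so this adds no support. Scaling to the hybridisation controls shifted the median of all genes by -0.283 at 24 h and -0.441 at 48 h and made 30.2% and 23.5% of called genes higher, against 53.6% and 47.5%. Under it the long medians were -4.04 at 24 h and -4.73 at 48 h, and the short medians -0.69 and -1.16. With the mean over all probe sets the long median at 24 h was -3.47, and the short medians were -0.17 and -0.22. With equal array medians the long median at 24 h was -3.72. These long medians include PTPRG and PTPRM, with Aa arrays mostly at background, so their steadiness adds no support. With the limit at 150 kb the long median at 24 h was -3.11, and the short medians were -0.15 and -0.15. Counting every probe set gave 8 lower at 24 h and 10 at 48 h. Those of PTPRG and PTPRM among them passed the filter mainly through control arrays and add no support. For the difference of the changes, no filter gave 0 lower members, and the replicate block, quantile normalisation and a floor at log2 4 each gave 1 higher member, PTPRH. The replicate block, which pairs the samples, changed no member's call other than those given beside the results. PTPRA also passed as lower at 24 h with hybridisation control scaling (adjusted p = 0.0293), the mean of probe sets (0.00833) and the probe set of highest variance (0.00127), and PTPRS with hybridisation control scaling (0.0126). For PTPRE the mean over all probe sets, which includes those at background, gave -0.61 at 24 h and -0.41 at 48 h. For PTPRK that mean, which includes a probe set under the filter, gave -2.05 and -2.30, beside -3.11 and -4.10 for the main probe set.

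Leaving out 1 array at a time gave 4 to 5 lower members at 24 h, 6 at 48 h and 1 higher at both times, 0 to 3 lower and 0 to 1 higher for the difference of the changes, and 0 for the control times. The long medians ran from -3.86 to -3.66 at 24 h and from -4.59 to -4.11 at 48 h, and the short medians from -0.40 to -0.29 and from -0.83 to -0.52. Because PTPRG and PTPRM entered the test mainly through their control arrays, the narrow ranges of the long medians add no support. PTPRS passed as lower at 24 h without Aa 24 h replicate 2 (adjusted p = 0.0344) or control 48 h replicate 2 (0.0419). PTPRH passed for the difference of the changes without control 48 h replicate 1 (0.00534), and PTPRA did not without Aa 24 h replicate 1, Aa 48 h replicate 2 or 3, or control 24 h replicate 2 or 3. None of the values that turned sign passed. Leaving out 1 array, PTPRF ran from -0.381 to 0.077 at 24 h and from -0.282 to 0.036 at 48 h, and with the probe set of highest variance it had 0.102 at 48 h. Its difference between times was 0.056 with quantile normalisation, 0.121 with the mean of probe sets, 0.359 with the probe set of highest variance, and ran from -0.228 to 0.23 leaving out 1 array. That of PTPRG, whose Aa arrays were mostly at background, ran from -1.214 to 0.055. Between control times PTPRE ran from -0.345 to 0.077 leaving out 1 array, PTPRH had 0.112 with the floor, PTPRK -0.026 with the mean of probe sets, and, with hybridisation control scaling, PTPRK had -0.154, PTPRM -0.048 and PTPRS -0.066.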
